A study of Mus musculus with 26 samples.

Results

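The genes described are 36 interferon-stimulated genes of the mouse, taken by symbol from a fixed list. The list was chosen with earlier results of these data known. All 36 were found among the 24421 genes of the deposited count tables. They were followed in 26 bulk RNA-sequencing libraries of cardiac stromal cells.

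Interferons are secreted proteins that cells release when they sense viral nucleic acid or other danger signals. Type I interferons bind the receptor formed by Ifnar1 and Ifnar2, and the kinases Jak1 and Tyk2 then activate a complex with STAT2 and IRF9 that enters the nucleus and binds interferon-stimulated response elements (ISREs) in promoters. Interferon gamma, the type II interferon, signals through Ifngr1 and Ifngr2 and acts on promoters with gamma-activated sites (GAS). Fibroblasts carry both receptors and keep a low standing level of many of the target genes.

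All mice, controls included, were C57BL/6 of the line B6.129S4-Pdgfratm11(EGFP)Sor/J with the genotype PDGFRa H2BEGFP+, in which the platelet-derived growth factor receptor gene Pdgfra drives a fluorescent histone, so that the sort takes whatever cells use that promoter. Cells negative for CD45 (leukocytes) and CD31 (endothelium) and positive for the reporter were sorted from dissociated hearts and split by SCA-1, a surface protein of stromal progenitors. Hearts were either undamaged or infarcted by ligation of a coronary artery (LAD) and collected at day 7, 14 or 28. There were 9 undamaged libraries (5 Sca-1 positive, 4 negative), 6 of day 7 (1 positive, 1 negative, 4 with no gate in the labels), 4 of day 14 (2 of each gate) and 7 of day 28 (4 positive, 3 negative). The labels give no age and no sham operation, and are silent on whether libraries stem from different animals. Every p below therefore measures the spread between these libraries, which may be technical.

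The library titles hold 2 kinds of replicate code: a letter with a digit (letter-coded, such as E1) and a code that follows a number (number-prefixed, such as A6 after 67). The letter-coded libraries are 5 undamaged and 3 of day 28. The number-prefixed ones are 4 undamaged, 4 of day 7, 4 of day 14 and 4 of day 28, and each number before a code occurs at 1 time point only. The number-prefixed titles after ligation hold a further prefix before the number, which the undamaged ones lack. The labels do not say what the kinds of code stand for, and the other 2 libraries of day 7 carry no code. The number-prefixed libraries come from few codes: in undamaged hearts they are A6 and B7, both after 67, each in both gates, and at day 28 they are B4 and B6 in both gates. Among the undamaged letter-coded libraries F3 occurs in both gates.

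The libraries held 6792786 to 48836726 counts assigned to genes. At this depth 3 counts, the limit that a count of 0 allows, correspond to 0.0575 to 0.424 CPM, the counts scaled to library size with TMM factors. Summed cardiac fibroblast markers stood between 69330 and 108600 CPM and Pdgfra between 341.9 and 810.1 CPM in all libraries, while Ptprc, the gene of CD45, stayed at or below 2.05 CPM. Libraries differed in ways that the groups do not give: 6 of them (4 of day 7, 2 of day 14) had over 20 CPM of Xist, the RNA that coats an inactive X, and 55.8% of the reads of the Sca-1 positive day 28 library E2 fell outside genes.

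Promoter windows from RefSeq (build GRCm38.p6, 250 bases before to 50 after a gene's start) were matched to 28 of the 36 genes. Dhx58, Usp18, Oas2, Mx1, Mx2, Ifi27, Rtp4 and Parp14 had no entry. The ISRE core, GAAA followed by any 2 bases and a second GAAA, searched on both strands, was present for 16 of the 28 genes (57.1%), against 3.99% of all 27025 genes with a window. The GAS core TTCNNNGAA, which reads the same on both strands, was present for 8 of the 28 (28.6%), against 9.55% of all genes, and its GAA can be shared with an ISRE match. The windows are shown for the member with the smallest p in each comparison of times or gates, including those that called no member and leaving aside tests of a change in a difference, as the 150 bases before the start on the gene's strand, 5′ to 3′, with ISRE matches in capitals.
Isg15 (chr4:156200819-156200968, minus strand): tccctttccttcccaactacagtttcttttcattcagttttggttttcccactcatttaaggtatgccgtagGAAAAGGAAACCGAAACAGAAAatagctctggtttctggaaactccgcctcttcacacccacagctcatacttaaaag
Irgm1 (chr11:48871421-48871570, minus strand): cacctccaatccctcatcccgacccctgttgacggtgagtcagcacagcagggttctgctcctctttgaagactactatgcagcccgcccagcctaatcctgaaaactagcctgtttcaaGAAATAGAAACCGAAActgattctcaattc
Gbp2 (chr3:142620513-142620662, plus strand): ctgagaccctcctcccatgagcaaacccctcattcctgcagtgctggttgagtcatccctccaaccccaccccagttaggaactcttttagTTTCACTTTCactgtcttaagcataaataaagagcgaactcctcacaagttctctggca
Gbp7 (chr3:142530186-142530335, plus strand): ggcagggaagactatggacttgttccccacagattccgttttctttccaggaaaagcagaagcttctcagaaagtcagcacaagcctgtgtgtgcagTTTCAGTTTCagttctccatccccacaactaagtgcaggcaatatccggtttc
Ifi44 (chr3:151749911-151750060, minus strand): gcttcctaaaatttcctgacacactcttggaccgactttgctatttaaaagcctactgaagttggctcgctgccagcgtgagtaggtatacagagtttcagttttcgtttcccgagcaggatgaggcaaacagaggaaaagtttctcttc
Irf7 (chr7:141266425-141266574, minus strand): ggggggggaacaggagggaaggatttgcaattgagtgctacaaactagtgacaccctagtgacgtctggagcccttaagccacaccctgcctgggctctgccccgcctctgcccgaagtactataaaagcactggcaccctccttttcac
Irf9, upstream start (chr14:55603835-55603984, plus strand): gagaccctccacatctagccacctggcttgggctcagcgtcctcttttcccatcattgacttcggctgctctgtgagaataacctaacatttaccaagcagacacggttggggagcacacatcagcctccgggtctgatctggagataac
Irf9, downstream start (chr14:55604429-55604578, plus strand): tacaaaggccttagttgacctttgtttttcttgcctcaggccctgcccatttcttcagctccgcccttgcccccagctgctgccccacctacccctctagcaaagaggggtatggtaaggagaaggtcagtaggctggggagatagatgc
Samd9l (chr6:3399572-3399721, minus strand): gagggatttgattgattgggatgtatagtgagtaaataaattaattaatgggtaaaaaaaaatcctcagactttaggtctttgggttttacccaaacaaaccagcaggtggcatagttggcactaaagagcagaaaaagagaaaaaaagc
Xaf1 (chr11:72301479-72301628, plus strand): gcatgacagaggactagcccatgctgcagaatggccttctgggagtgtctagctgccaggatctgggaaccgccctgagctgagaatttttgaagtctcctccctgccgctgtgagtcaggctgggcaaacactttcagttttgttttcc
Isg15 holds 3 matches that overlap each other, beginning 78, 72 and 66 bases before its start. Irgm1 holds 2 overlapping matches that begin 30 and 24 bases before its start, and Gbp2 holds 1 on the opposite strand that begins 59 bases before its start. Gbp7 holds 1 match that begins 53 bases before its start and also 2 GAS matches. Ifi44, Irf7, both starts of Irf9, Samd9l and Xaf1 hold neither core within the whole window, which says only that these letters are not there.

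The members spanned a wide range of standing levels. Per kilobase of annotated exon, averaged over the 26 libraries, Ifitm3, a membrane protein that blocks virus entry, stood at 735.5 CPM. The next were the virus tether Bst2 at 56.9, Ifi27 at 55.1, the guanylate-binding GTPase Gbp2 at 36.6 and Isg15, a ubiquitin-like modifier, at 23.5 CPM per kilobase. At the other end, Oas3 and Oas2, enzymes that make the messenger activating RNase L, were at 0.0414 and 0.865 CPM per kilobase. Mx1, listed with the GTPases, was at 0.336 and Ifi44 at 0.606. Oas3 had 0 counts in 10 of the 26 libraries and no fold change is given for it.

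To place the libraries, each gene's log2 CPM was scaled to a z-score over the 26 libraries and averaged over the 36 genes. The undamaged letter-coded libraries had scores of 1.88 (Sca-1 positive E1), 0.80 (positive E3), 0.29 (positive F3), 0.70 (negative E5) and 0.38 (negative F3). The undamaged number-prefixed libraries had scores of -1.04 (negative A6), -0.66 (positive A6), -0.60 (negative B7) and -0.25 (positive B7). The lowest library of the series and the 3 highest were thus all from undamaged hearts, and the scores of the 2 kinds of undamaged library did not overlap. Day 7 ran from -0.63 to 0.67, day 14 from -0.44 to 0.34 and day 28 from -0.61 to 0.25, each inside the range of the undamaged libraries. Library E1 held the highest level of all 26 libraries for 23 of the 36 genes.

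**Figure D1:**
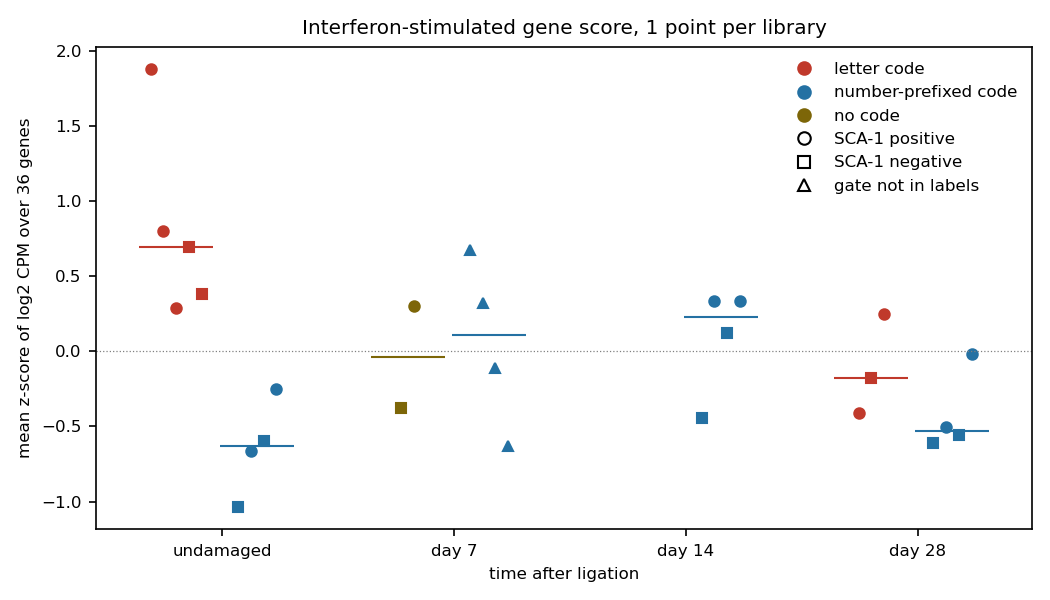
Mean z-score of the 36 interferon-stimulated genes in each of the 26 libraries, by time after ligation, with 1 point per library, shape for the gate and colour for the kind of title code. The undamaged letter-coded libraries lie between 0.29 and 1.88 and the undamaged number-prefixed ones between -1.04 and -0.25.

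**Figure D2:**
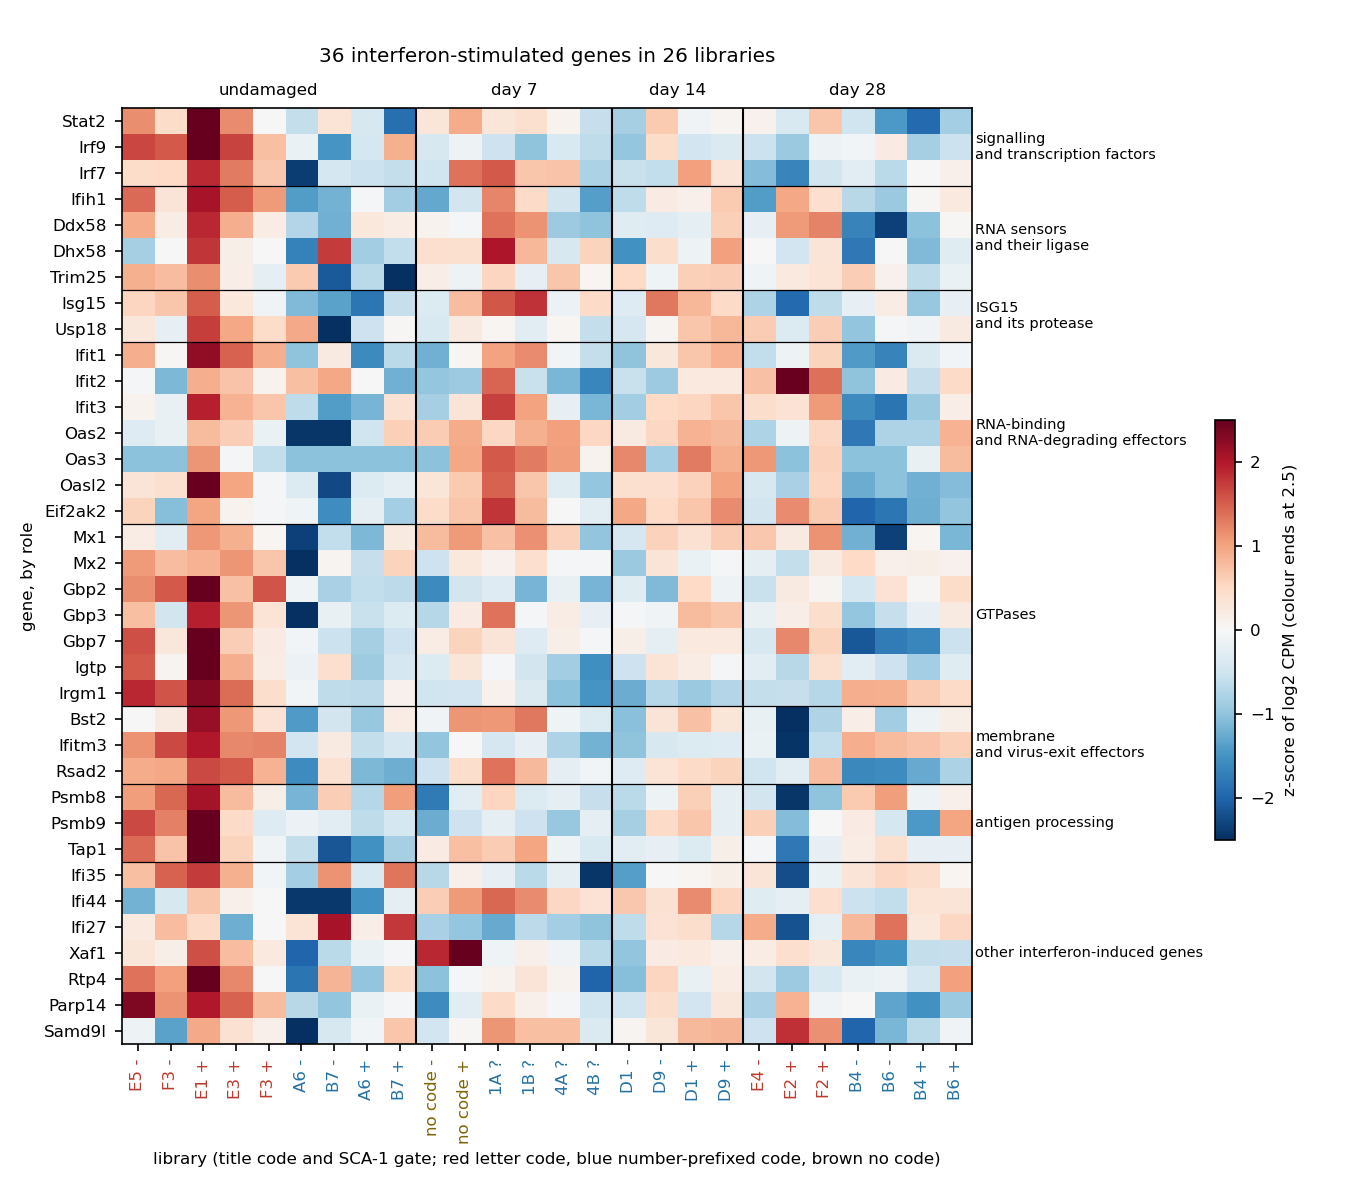
Level of each of the 36 genes (one line per gene, ordered by role) in each of the 26 libraries (columns, grouped by time and kind of code), as a z-score of log2 CPM with the colour limited at 2.5 in either direction. The undamaged letter-coded columns have median z-scores between 0.16 (positive F3) and 1.92 (positive E1). The Sca-1 positive library E1 is the highest of all for 23 of the genes.

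Since both kinds of code occur in undamaged hearts and at day 28, the kinds were compared at equal time and gate in these 16 libraries with edgeR's quasi-likelihood test, where a call is an adjusted p (Benjamini-Hochberg, across every gene in the fit) below 0.05. In undamaged hearts 18 of the 35 members tested were lower in the number-prefixed libraries and 0 were higher, beside 7.74% lower and 5.24% higher (13% in either direction) of all 13108 genes tested. The median log2 difference was -0.85 over the members and -0.03 over all genes. Oas3 did not pass the filter on low counts in these 16 libraries. All 3 transcription factors of the pathway among the members were lower, as were 4 of 7 GTPases, 2 of 3 membrane and virus-exit proteins, 3 of 6 RNA-binding or RNA-degrading effectors, 1 of 4 RNA sensors and their ligase, 1 of 3 antigen-processing genes, 1 of 2 in the Isg15 conjugation pair and 3 of 7 others.

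Among the GTPases, Irgm1 (Ensembl ENSMUSG00000046879.7, GRCm38 chromosome 11, 48861968 to 48871683), which acts on membranes of intracellular pathogens and in autophagy, had 84.7, 57.4, 37.8, 70.8 and 61.9 CPM in the 5 letter-coded and 30.3, 23.5, 23.8 and 32.7 CPM in the 4 number-prefixed undamaged libraries. Each letter-coded library was above each number-prefixed one, and the log2 difference was -1.18 ± 0.19 (SE; edgeR adjusted p = 0.0007164). Gbp2 (ENSMUSG00000028270.12, chromosome 3, 142620602 to 142638008), a GTPase that coats vacuoles of pathogens, had 242.2, 111.6, 149, 129 and 147.3 CPM against 83.2, 69.4, 65.1 and 68.7 CPM. These ranges did not overlap either, with a difference of -1.10 ± 0.19 (edgeR adjusted p = 0.001208). Gbp7 (-0.98) and Gbp3 (-1.25) were lower as well at edgeR adjusted p of 0.01956 and 0.03639. Igtp, an Irgm1 relative, was not called, and its level of 110.2 CPM in library E1 stood apart from 8.76 to 37.1 CPM in the other 25 libraries. The annotated spans of Igtp and Irgm2 overlap on the same strand of chromosome 11, so their reads may not be separable.

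Of the transcription factors, Irf7 (ENSMUSG00000025498.15, chromosome 7, 141262706 to 141266481), the amplifier of type I interferon genes, had 69.1, 54.3, 41.6, 37.8 and 38.4 CPM against 11.2, 24.6, 25.8 and 24.0 CPM, without overlap (-1.11 ± 0.22, edgeR adjusted p = 0.003648). Irf9, the DNA-binding partner of the STAT complex, had 101.3, 76.2, 59.4, 76.0 and 73.4 CPM against 46.3, 42.8, 32.5 and 61.6 CPM, where the number-prefixed library B7 of the positive gate reached into the letter-coded range (-0.74, edgeR adjusted p = 0.009487). Stat2 differed by -0.81 (edgeR adjusted p = 0.0376). Ifih1, which encodes the cytosolic RNA sensor MDA5, had 69.5, 59.5, 52.4, 58.0 and 42.6 CPM against 26.2, 38.3, 27.7 and 30.3 CPM, again without overlap (-0.85 ± 0.14, edgeR adjusted p = 0.001063). The other RNA sensors, Ddx58 (RIG-I, -0.30) and Dhx58 (-0.20), and the ligase Trim25 (-0.47) were not called.

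Ifitm3 (ENSMUSG00000025492.6, chromosome 7, 141009586 to 141010770) had 998.5, 732.3, 744.8, 710.9 and 869.8 CPM in the letter-coded and 388.6, 369.9, 506.1 and 395.8 CPM in the number-prefixed undamaged libraries. The highest number-prefixed library was below the lowest letter-coded one (-0.98 ± 0.19, edgeR adjusted p = 0.00334). Isg15 (ENSMUSG00000035692.6, chromosome 4, 156199424 to 156200818) had 31.3, 18.2, 15.7, 20.6 and 21.9 CPM against 10.1, 7.54, 9.16 and 12.8 CPM (-1.11 ± 0.24, edgeR adjusted p = 0.005876). Rsad2, which encodes viperin, an enzyme that makes a chain-terminating nucleotide, had 17.8, 16.5, 10.7, 11.1 and 11.4 CPM against 2.11, 2.85, 7.79 and 2.68 CPM. Again no number-prefixed library reached the letter-coded range (-1.84 ± 0.38, edgeR adjusted p = 0.005194). Tap1, the transporter that loads peptides for class I molecules, differed by -1.44 ± 0.30 (edgeR adjusted p = 0.00529). Tap1 and the immunoproteasome gene Psmb9 overlap on opposite strands of chromosome 17 and the strand setting of the counting is not given, so their reads may not be separable. Also lower were Parp14, Ifit1, Ifit3, Xaf1, Oasl2 and Ifi44, and reads of Ifit3 can be shared with a near-identical copy.

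Not every member followed. Samd9l, a restrictor of virus translation, had 50.3, 39.3, 35.1, 31.7 and 18.7 CPM against 10.7, 32.5, 27.9 and 45.3 CPM, with overlapping ranges and no call (-0.22 ± 0.25). Ifit2 differed by 0.01 ± 0.23 and Ifi27 by 0.43 ± 0.20, neither called. In all, 13 of 36 members had letter-coded levels entirely above the number-prefixed ones in undamaged hearts, 0 the reverse and 23 overlapped, beside 7.43% with letter-coded and 4.31% with number-prefixed levels entirely above among the 13108 genes of the fit.

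Because libraries of 1 code may not be independent, their counts were also summed, which leaves 4 letter codes and 2 number-prefixed codes in undamaged hearts (chosen after the data were seen). The gate is then not a term at either time. The number-prefixed codes sum both gates and most letter codes hold 1 gate, so the gate is not equal between the kinds. In that fit 6 of 36 members were lower in the number-prefixed codes (Irgm1, Rsad2, Irf7, Ifit1, Gbp2 and Parp14) and 0 higher, beside 2.35% lower and 1.26% higher (3.61% in either direction) of all 13479 genes, with a median of -0.95. Irgm1 differed by -1.23 ± 0.22 (edgeR adjusted p = 0.01227), and Ifih1 (-0.91, edgeR adjusted p = 0.05912) and Ifitm3 (-0.98, edgeR adjusted p = 0.08745) were not called.

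**Figure D3:**
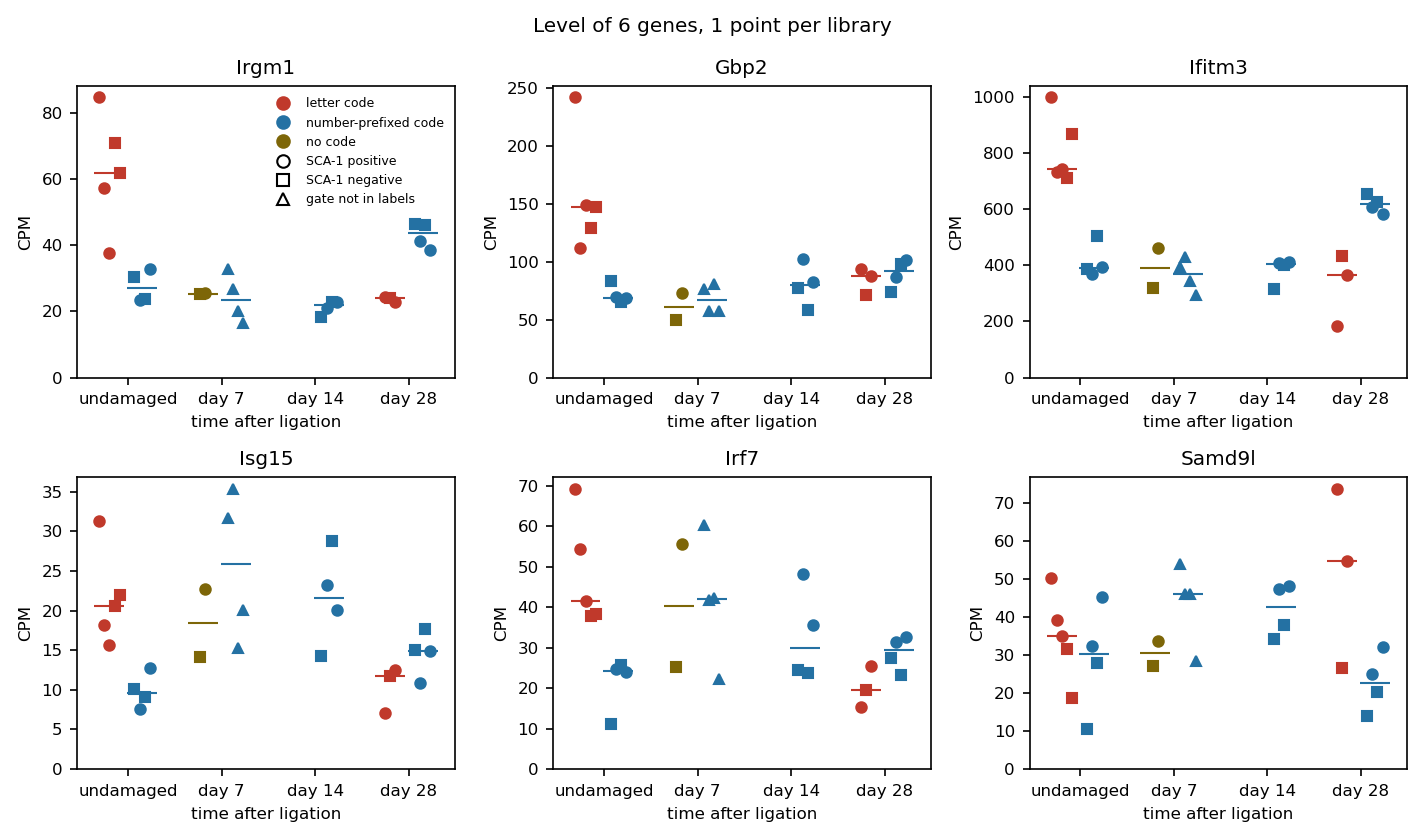
CPM of Irgm1, Gbp2, Ifitm3, Isg15, Irf7 and Samd9l in each of the 26 libraries by time, with 1 point per library and colour for the kind of title code. Undamaged letter-coded points of Irgm1 (37.8 to 84.7 CPM) lie above the number-prefixed ones (23.5 to 32.7 CPM), whereas at day 28 the number-prefixed points (38.5 to 46.4 CPM) lie above.

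Other measures separated the same undamaged libraries. The number-prefixed ones had 12325 to 14142 genes detected against 14774 to 15309, and 10% to 13.5% of reads outside genes against 5.53% to 8.58%. Their summed cardiomyocyte markers were 28.2 to 86.1 CPM against 10.96 to 21.4 CPM, with 4 of 7 markers tested higher. Leukocyte markers, 0 of 10 called, summed to 11.5 to 46.8 CPM against 12.8 to 22.7 CPM, and fibroblast markers, 0 of 8 called, to 69330 to 76370 CPM against 72480 to 90320 CPM. The part of these measures in the result was not tested, and in bulk RNA fewer cells of a type and less RNA per cell cannot be told apart. Without the 3 undamaged libraries with the fewest detected genes (both B7 libraries and negative A6), which leaves 1 number-prefixed library, 3 members were called lower (Ifit1, Rsad2 and Mx2). Without the negative library E5, 11 members were called lower. Shares of all genes are not given for these fits, so the counts show only that the calls depend on those libraries.

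At day 28 the same comparison gave 2 members higher and 4 lower of 35 in the number-prefixed libraries, beside 4.73% higher and 2.83% lower (7.56% in either direction) of all genes, and medians of -0.08 for the members and -0.02 for all genes. Ifitm3 had 183, 435.1 and 367.1 CPM in the 3 letter-coded and 655.3, 608.9, 627.3 and 584.1 CPM in the 4 number-prefixed libraries, so the number-prefixed ones were all higher (0.89 ± 0.21, edgeR adjusted p = 0.01719). Irgm1 had 24.3, 24.1 and 22.9 CPM against 46.4, 41.3, 46.1 and 38.5 CPM, in the same order (0.83 ± 0.22, edgeR adjusted p = 0.03025). In the opposite direction, Eif2ak2, which encodes PKR, the kinase that halts translation on double-stranded RNA, had 37.6, 20.3 and 30.9 CPM against 11.5, 15.2, 12.2 and 16.6 CPM. All of its number-prefixed libraries were lower (-0.97 ± 0.24, edgeR adjusted p = 0.019).

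The other 3 members lower in number-prefixed libraries at day 28 were Ifit3, Gbp7 and Xaf1. Ifit3, which binds foreign RNA together with Ifit1, had 33.5, 34.7 and 46.5 CPM against 13.5, 18.5, 12.2 and 30.8 CPM (-1.005, edgeR adjusted p = 0.03423). Gbp7 had 58.4, 31.1 and 45.3 CPM against 15.9, 19.2, 18.5 and 29.5 CPM (-1.001, edgeR adjusted p = 0.04723). Neither pair of ranges overlapped, nor did those of Xaf1, a gene linked to cell death, at 16.7, 15.1 and 15.7 CPM against 6.80, 10.8, 7.18 and 10.8 CPM (-0.80, edgeR adjusted p = 0.0487). Over the 36 members, 9 had letter-coded levels entirely above, 3 (Ifitm3, Irgm1 and Psmb8) had number-prefixed levels entirely above, and 24 overlapped, beside 10.4% and 10.9% of all genes of the fit. With 3 letter-coded libraries the calls depended on single ones: 0 members were called without positive B4, 1 without negative E4 or positive B6, 2 without positive E2, positive F2 or negative B4, and 9 without the undamaged negative B7. Over the 16 fits that leave out 1 library, the call of Xaf1 was lost in 13, that of Gbp7 in 11, Irgm1 in 6, Ifit3 in 5, Eif2ak2 in 4 and Ifitm3 in 2. With libraries of 1 code summed, 3 letter codes against 2 number-prefixed ones, 1 member was called, Irgm1 (0.87 ± 0.22, edgeR adjusted p = 0.04935), beside 2.22% higher and 1.02% lower (3.24% in either direction) of all genes, and the median was -0.30.

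Whether the difference between the kinds of code itself changed from undamaged hearts to day 28 was tested in the same fit, as a comparison chosen after the data were seen. The change was positive and called for 8 members and negative for 0 of 35, beside 8.55% positive and 5.57% negative (14.1% in either direction) of all genes, with a median of 0.65 over the members. Irgm1 changed by 2.01 log2 (edgeR adjusted p = 0.000162) and Ifitm3 by 1.86 (edgeR adjusted p = 0.0002697), since both lay below in number-prefixed undamaged libraries and above at day 28. Irf7 (1.64), Tap1 (1.74), Isg15 (1.53), Psmb8 (1.25), Gbp2 (1.24) and Ifih1 (0.81) were the others, at edgeR adjusted p between 0.00288 and 0.02506. Leaving out 1 library at a time gave 7 to 11 called members. With libraries of 1 code summed 4 were called, all positive (Irgm1, Ifitm3, Irf7 and Isg15), beside 4.17% positive and 2.6% negative (6.77% in either direction) of all genes.

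**Figure D4:**
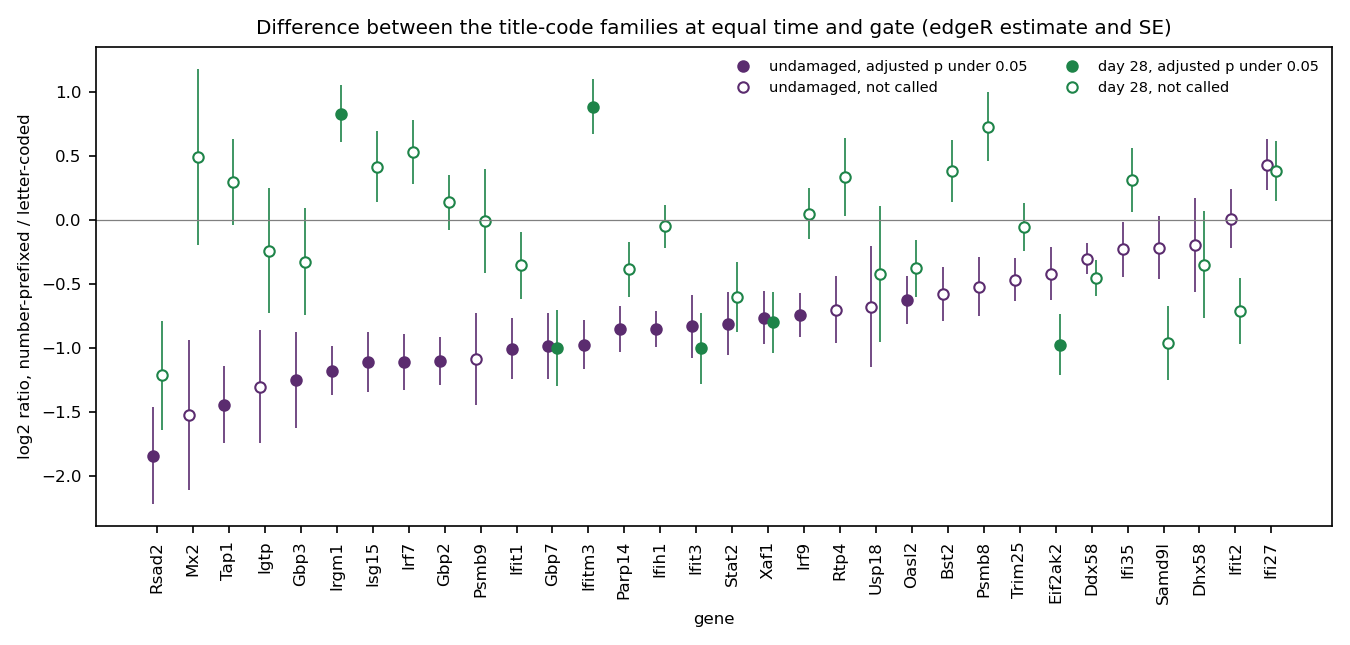
Log2 ratio of number-prefixed to letter-coded libraries (edgeR estimate with its SE) for 32 members in undamaged hearts and at day 28, ordered by the undamaged value, with filled points at an adjusted p under 0.05 and the 4 members of lowest level left out. Irgm1 moves from -1.18 to 0.83 and Ifitm3 from -0.98 to 0.89, whereas Eif2ak2 is called at day 28 only, at -0.97; the change of Eif2ak2 was not called.

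The time after ligation was compared with undamaged hearts over all 26 libraries without the gate, which the labels do not give for 4 libraries. The comparisons of day 7, day 14 and day 28 share the 9 undamaged libraries. At day 7, 8 members were lower and 1 was higher, beside 11.2% lower and 11.5% higher (22.8% in either direction) of all 13392 genes, with medians of -0.16 for the 36 members and -0.04 for all genes. The share called among the members, 9 of 36, was near that background. Gbp2 had a lowest, median and highest level of 65.1, 111.6 and 242.2 CPM in undamaged hearts and of 49.4, 65.5 and 80.6 CPM at day 7, with overlapping ranges (-0.85 ± 0.23, edgeR adjusted p = 0.007765). Irgm1 had 23.5, 37.8 and 84.7 CPM and then 16.5, 25.3 and 32.7 CPM, which overlap too (-0.94 ± 0.26, edgeR adjusted p = 0.008765). In both genes the overlap came from the number-prefixed undamaged libraries, which lay in or near the day 7 range.

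Ifi27, a small hydrophobic membrane protein, had 54.5, 85.9 and 141.1 CPM in undamaged hearts and 53.9, 59.7 and 64.2 CPM at day 7 (-0.65 ± 0.18, edgeR adjusted p = 0.01073). Irf9 fell by 0.58 ± 0.17 on the log2 scale (edgeR adjusted p = 0.01312). Ifitm3, Ifi35, Igtp and Psmb9 were lower as well, at edgeR adjusted p between 0.02187 and 0.04189. The 1 member that rose was Ifi44, with 0, 1.27 and 5.29 CPM in undamaged hearts and 3.49, 6.64 and 13.7 CPM at day 7 (edgeR adjusted p = 0.009198). Its fitted fold depends on the prior count, because 2 undamaged libraries had 0 counts of it.

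At day 7 markers of other cells differed too. All 10 endothelial markers were lower (Pecam1, the gene of CD31, by -2.33 log2), with sums of 110.2 to 182.5 CPM against 200.5 to 397 CPM. Of 13 leukocyte markers tested 6 were higher, with sums of 39.2 to 74.4 CPM against 11.5 to 46.8 CPM. Fibroblast markers summed to 93040 to 108600 CPM against 69330 to 90320 CPM. Their part in the members' levels was not tested. Of the 6 libraries with Xist above 20 CPM, 4 were of day 7. Without those 6 libraries 0 members were lower at day 7 and 1 was higher, and Gbp2 differed by -0.82 and Irgm1 by -0.66 without a call. Without the Sca-1 negative day 7 library, or without 4B, 5 members were called. For these fits the shares of all genes are not given, so the counts show only that the calls depend on those libraries.

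At day 14, 0 members were higher and 1 lower, beside 5.84% higher and 3.14% lower (8.98% in either direction) of all genes, with medians of -0.16 and -0.03. That member was Irgm1, at 18.2, 20.9, 22.9 and 22.7 CPM, each below the lowest undamaged library (-1.15 ± 0.30, edgeR adjusted p = 0.01399). It was no longer called without the negative day 14 library D1 (-1.08) or without the libraries with high Xist (-1.27). Without the positive undamaged library E1 2 members were higher and 1 lower, and 2 were lower without negative A6, negative B7 or day 28 positive E2. At day 28, 0 members were higher and 1 lower, beside 3.45% higher and 1.94% lower (5.39% in either direction), with medians of -0.36 and -0.00. Irf9 had 37.6, 42.0 and 51.2 CPM at day 28 and 32.5, 61.6 and 101.3 CPM in undamaged hearts as lowest, median and highest (-0.54 ± 0.16, edgeR adjusted p = 0.04701). This call lies close to the threshold, and it was lost in 22 of the 26 fits that leave out 1 library, at log2 differences of -0.61 to -0.43; it held without either undamaged A6 library, negative B7 or day 14 negative D1. Among those 26 fits, 20 called 0 members, and 2 were called without either undamaged A6 library or without negative B7.

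Between the times after ligation, 0 members were called by edgeR from day 7 to day 14, beside 0.0149% of all genes. The number of members at an unadjusted p under 0.05 was 0, and DESeq2 called 0. From day 7 to day 28, 1 member was lower and 0 higher, beside 5.5% lower and 6.13% higher (11.6% in either direction). Isg15 had a lowest, median and highest level of 14.1, 21.4 and 35.4 CPM at day 7 and of 7.07, 12.5 and 17.7 CPM at day 28 (-0.85 ± 0.28, edgeR adjusted p = 0.04935). The ranges overlapped, and this call was lost in 17 of 26 fits that leave out 1 library, at differences of -0.96 to -0.69. It held without undamaged E1, negative or positive A6, negative or positive B7, the negative day 7 library, 4A, day 14 negative D1 or day 28 negative B6.

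The members' differences over time were then taken within each kind of code, because the undamaged libraries of the 2 kinds differed. Within number-prefixed libraries each number occurs at 1 time only, so time cannot be told apart from the number or the form of the title. The undamaged number-prefixed libraries come from 2 codes, each in both gates, and the time fits were not repeated with codes summed. In the number-prefixed libraries alone, 6 members were higher and 1 lower at day 7, beside 10.7% higher and 8.81% lower (19.5% in either direction) of all 13083 genes. The share of members called in either direction was near that background. The median of the members was 0.36 against -0.02 over all genes, and 0.27 over the 32 members without the 4 of lowest level. The fit of all libraries had given medians of -0.16 and, over those 32, -0.23. To vary the reference alone, only the 5 letter-coded undamaged libraries were left out and all others kept (chosen after the data were seen). Then 5 members were higher and 1 lower at day 7, beside 11.6% and 10.3% (22% in either direction) of all 13202 genes. At day 14, 3 were higher and 0 lower, beside 5.83% and 2.4% (8.23% in either direction), and at day 28 0 were called, beside 5.38% and 3.27% (8.65% in either direction). The medians of 0.35, 0.33 and 0.19 were above 0, whereas those against all undamaged libraries were below 0. The libraries left out had scored above every undamaged library kept, so a rise of the medians followed from that choice. It restates the difference between the kinds of code and adds nothing on time.

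Other measures differed between the number-prefixed libraries of undamaged hearts and day 7. Genes detected were 12325 to 14142 against 14041 to 15124. Fibroblast markers summed to 69330 to 76370 CPM in undamaged hearts and 93040 to 108600 CPM at day 7, without overlap. At day 14 they summed to 70280 to 94730 CPM and at day 28 to 92700 to 99620 CPM. Leukocyte markers summed to 11.5 to 46.8 CPM in undamaged hearts and 39.9 to 74.4 CPM at day 7, with 1 of 12 higher, and cardiomyocyte markers to 28.2 to 86.1 and 12.3 to 40.9 CPM, with 1 of 7 lower. Of the endothelial markers 4 of 10 were lower. Xist was above 20 CPM in the day 7 libraries 4A and 4B and in both day 14 libraries D9. No number-prefixed library of undamaged hearts or day 28 exceeded that level. The number-prefixed fits were not repeated without the libraries with high Xist. The part of these measures in the members' levels was not tested.

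Isg15 had 10.1, 7.54, 9.16 and 12.8 CPM in number-prefixed undamaged hearts and 31.7, 35.4, 15.3 and 20.1 CPM at day 7 in libraries 1A, 1B, 4A and 4B. All day 7 libraries were above all undamaged ones (1.36 ± 0.28, edgeR adjusted p = 0.003181). Tap1 had 25.2, 17.5, 13.6 and 22.9 CPM and then 41.2, 47.5, 30.5 and 27.6 CPM, without overlap (0.88, edgeR adjusted p = 0.006341). Irf7 had 11.2, 24.6, 25.8 and 24.0 CPM and then 60.2, 41.9, 42.2 and 22.1 CPM, where library 4B overlapped (0.95 ± 0.30, edgeR adjusted p = 0.03451). Eif2ak2 (0.71 ± 0.23, edgeR adjusted p = 0.03758), Ifi44 and Oas3 were also higher. Oas3 had 0 counts in the 4 undamaged and 1.01, 0.788, 0.604 and 0.188 CPM in the 4 day 7 libraries. The lowest of these values lies within the limit that a count of 0 allows over the libraries (0.0575 to 0.424 CPM). Ifi27 was the member that was lower (-0.90 ± 0.19, edgeR adjusted p = 0.00328), the same direction as over all libraries.

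Still within number-prefixed libraries, 5.67% of all genes were higher and 2.83% lower at day 14 (8.5% in either direction). Beside this, 4 members were higher and 0 lower, with a median of 0.33. These were Isg15 at 14.2, 23.2, 28.8 and 20.1 CPM (1.11 ± 0.28, edgeR adjusted p = 0.01807), Eif2ak2 (0.79, edgeR adjusted p = 0.04019), Ifi44 and Oas3. At day 28, 3 members were higher and 1 lower, beside 6.84% and 4.73% (11.6% in either direction) of all genes, with a median of -0.02. The share of members called in either direction at day 28 was near that of all genes. Ifitm3 (0.56, edgeR adjusted p = 0.02568), Tap1 (0.71, edgeR adjusted p = 0.02966) and Irgm1 (0.62, edgeR adjusted p = 0.04235) were higher, and Gbp7 (-0.57, edgeR adjusted p = 0.04022) was lower. From day 7 to day 28 Ifitm3, Irgm1 and Ifi27 were higher and Eif2ak2, Gbp7, Rsad2 and Oasl2 lower. Beside this, 6.97% of all genes were higher and 6.83% lower (13.8% in either direction).

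In letter-coded libraries alone, which exist for undamaged hearts and day 28, 10 of 35 members were lower at day 28 and 0 higher, beside 6.22% lower and 5.47% higher (11.7% in either direction) of all genes. Their median was -0.61, against 0.01 over all genes. Irgm1 had 84.7, 57.4, 37.8, 70.8 and 61.9 CPM in undamaged hearts and 24.3, 24.1 and 22.9 CPM at day 28, without overlap (-1.40 ± 0.23, edgeR adjusted p = 0.004602). Irf7 (-1.27), Irf9 (-0.89), Ifitm3 (-1.31), Isg15 (-1.04), Gbp2 (-0.90), Rsad2 (-1.06), Mx2 (-1.45), Psmb8 (-1.15) and Rtp4 (-0.90), a chaperone of membrane receptors, were the others, at edgeR adjusted p between 0.007008 and 0.0495. For Irgm1 and Ifitm3 the day 28 difference was thus called lower among letter-coded and higher among number-prefixed libraries, and the change of the difference between the kinds, which tests this contrast, was called for both. Without library E2, which leaves 2 letter-coded libraries at day 28, 7 members were lower and 0 higher (Irgm1, Irf7, Irf9, Ifitm3, Mx2, Psmb8 and Parp14), beside 5.35% lower and 4.84% higher (10.2% in either direction), and the median was -0.61. With the kind of code and the gate as terms of 1 fit, edgeR called 0 members at day 28.

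**Figure D5:**
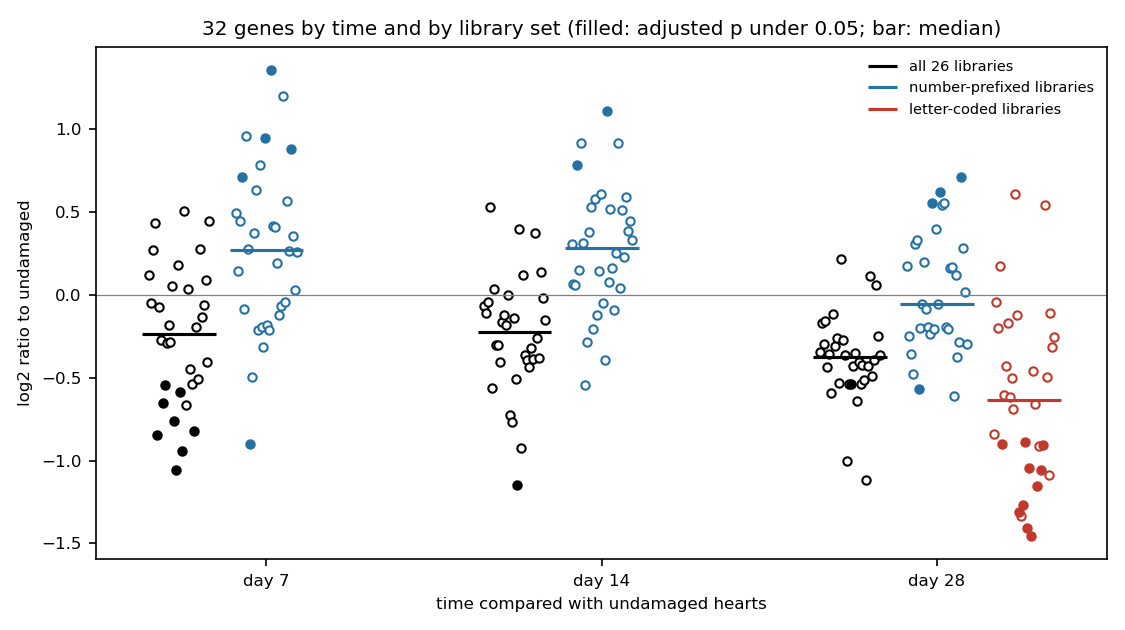
Log2 ratio to undamaged hearts at day 7, 14 and 28 for 32 members (edgeR estimates, the 4 of lowest level left out) in all 26 libraries, in number-prefixed libraries and in letter-coded libraries, with filled points at an adjusted p under 0.05 and a bar at the median. At day 7 the median is -0.23 over all libraries and 0.27 over the number-prefixed ones, and at day 28 it is -0.64 in letter-coded and -0.06 in number-prefixed libraries.

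The gates were compared in the 20 libraries with a time and a gate in the labels, with day 7 left out of the test because its gates have 1 labelled library each. By edgeR 0 of 36 members were called between Sca-1 positive and negative cells in undamaged hearts, beside 1.65% higher and 1.45% lower (3.1% in either direction) of all 13812 genes, 0 at day 14, beside 0.0507%, and 0 at day 28, beside 0.594% (0.434% higher, 0.159% lower). Members with an unadjusted p under 0.05 numbered 4, 0 and 5, and DESeq2 called 1, 0 and 1. Without the undamaged negative library F3, edgeR called 1 member higher in undamaged hearts. The medians were 0.28, 0.28 and 0.13 log2 toward the positive gate, with 33, 34 and 24 of 36 members above 0, beside medians of 0.01, -0.00 and -0.01 over all genes. Genes are not independent, so these counts describe the libraries and carry no p.

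Samd9l came nearest to a call. In the 5 positive undamaged libraries it had 50.3 (E1), 39.3 (E3), 35.1 (F3), 32.5 (A6) and 45.3 (B7) CPM, and in the 4 negative ones 31.7 (E5), 18.7 (F3), 10.7 (A6) and 27.9 (B7) CPM. Each positive library was above each negative one, with a difference of 0.86 ± 0.30 (edgeR adjusted p = 0.1413). At day 28 it had 73.7, 54.9, 24.95 and 32.3 CPM in the positive gate and 26.6, 14.1 and 20.3 CPM in the negative gate, where positive B4 lay below negative E4 (1.18 ± 0.35, edgeR adjusted p = 0.1256). DESeq2 called it at day 28 (adjusted p = 0.03261). At day 14 it had 47.4 and 48.2 CPM against 34.3 and 38.0 CPM (0.41 ± 0.43, edgeR adjusted p = 1).

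Ifi44, the next in undamaged hearts, had 5.29, 2.54, 2.17, 0.237 and 1.58 CPM in the positive and 0.410, 1.27, 0 and 0 CPM in the negative gate. The ranges overlapped (edgeR adjusted p = 0.1538; DESeq2 adjusted p = 0.03101). Ddx58 was the next at day 28, at 74.2, 76.9, 50.4 and 61.3 CPM against 58.7, 44.7 and 39.4 CPM (0.45 ± 0.19, edgeR adjusted p = 0.2614). At day 14 the smallest p were those of Irf7, at 48.2 and 35.5 CPM against 24.5 and 23.8 CPM (0.81 ± 0.50, edgeR adjusted p = 1), and Ifit1, at 27.7 and 29.5 CPM against 14.4 and 23.6 CPM (0.60 ± 0.47, edgeR adjusted p = 1). With 2 libraries per gate, day 14 borrowed its spread from the other groups.

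A code shared by a positive and a negative library of the same time was taken to mark a pair, although some libraries with different letter codes deviated together as strongly. With the code as a block, Samd9l was called in undamaged hearts (1.05 ± 0.19, edgeR adjusted p = 0.01126), the median of the members there was 0.05 with 18 of 36 above 0, and 4.01% of all 13670 genes were called. Mural cell markers (pericytes and smooth muscle) summed to 372.9 to 555 CPM in positive and 700.4 to 1142 CPM in negative undamaged libraries, with 2 of 9 lower in the positive gate and, with the block, 3 of 9. Leukocyte markers summed to 12.8 to 46.8 CPM in positive and 11.5 to 21.4 CPM in negative libraries, and with the block 1 of 13 was higher and 11 were above 0. Their part in the level of Samd9l was not tested. Within the pairs, members higher in the positive library numbered 18 (A6), 22 (B7) and 17 (F3) of 36 in undamaged hearts, 34 (D1) and 23 (D9) at day 14, and 21 (B4) and 24 (B6) at day 28. The tilt toward the positive gate seen without the block in undamaged hearts was thus not present within F3 or A6, whose median ratios were -0.00 and 0.04. The single day 7 libraries with a gate in their labels, which have no replicate, had 32 of 36 members higher in the positive one, with a median log2 ratio of 0.41 after adding 0.5 CPM.

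The change of the gate difference from undamaged hearts was called for 0 members at day 14 and 0 at day 28, beside 0% of all genes in both, with 0 members each at an unadjusted p under 0.05 and 0 by DESeq2. Against undamaged hearts, 0 members were called in the positive gate at day 14 and at day 28, with 2 and 5 at an unadjusted p under 0.05. Of all genes 1.85% (1.61% higher, 0.246% lower) and 1.27% (1.03% higher, 0.239% lower) were called there. In the negative gate 0 were called at day 14 and at day 28, with 4 and 2 at an unadjusted p under 0.05, beside 4.04% (3.02% higher, 1.02% lower) and 1.06% (0.818% higher, 0.246% lower) of all genes. The smallest p in the positive gate were those of Irgm1 (-1.10 ± 0.47, edgeR adjusted p = 0.3754) at day 14 and of Irf9 (-0.73 ± 0.24, edgeR adjusted p = 0.1625) at day 28. In the negative gate they were those of Ifi44 and Irgm1 (-1.19 ± 0.48, edgeR adjusted p = 0.2184) at day 14 and of Gbp7 (edgeR adjusted p = 0.3279) at day 28. DESeq2 called 1 of these, Ifi44 in the negative gate at day 14, and 0 in the other 3 comparisons. By edgeR 1 member was called higher there without the undamaged negative library F3.

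Upstream of the members, 21 genes of interferons were looked up and 18 of them had 0 counts in all 26 libraries. Ifng, the gene of interferon gamma, had 71 counts in total, of which 55 were in the undamaged negative library B7 and 9 in the undamaged negative library E5. Ifnz had 4 counts in all and Ifna7 had 1. Messenger RNA of the receptors was present in all libraries, with 70.5 to 110.1 CPM of Ifnar1 and 159.9 to 395.7 CPM of Ifngr1. At day 7 Ifnar1 was higher (0.23 ± 0.08, edgeR adjusted p = 0.04556), and Ifnar2 (-0.45 ± 0.14, edgeR adjusted p = 0.01765) and Ifngr1 (-0.61 ± 0.13, edgeR adjusted p = 0.001269) were lower.

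Other genes of the pathway, from a list of 160 of which 159 were found, split the undamaged libraries in the same direction as the members: 52 of 122 tested were lower in number-prefixed libraries and 0 higher, beside the 7.74% lower and 5.24% higher of all genes. With libraries of 1 code summed 22 of 126 were lower and 0 higher, beside 2.35% and 1.26%. Cxcl10, a chemokine gene driven by interferon and by inflammatory signals, had 30.7 to 55.03 CPM in letter-coded and 2.27 to 7.76 CPM in number-prefixed undamaged libraries (-2.94 ± 0.33, edgeR adjusted p = 2.12e-05). Irf1, a transcription factor of the gamma response, had 311 to 444.4 CPM against 132.4 to 189.5 CPM (-1.22 ± 0.14, edgeR adjusted p = 3.067e-05). Stat3 (-0.91), Irf8 (-1.07), the receptor chain Ifnar2 (-0.44), the kinase Jak1 (-0.49) and the class I light chain B2m (-1.04) were lower too. Of the lists, 9 of 14 class I presentation genes, 10 of 21 genes that lean toward the gamma response, 7 of 16 sensing genes, 4 of 7 STAT and IRF factors and 4 of 14 receptor, kinase and restraint genes were lower.

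At day 28 15 of the 122 were higher in number-prefixed libraries and 3 lower, beside 4.73% higher and 2.83% lower of all genes. With libraries of 1 code summed 8 of 126 were higher and 1 lower, beside 2.22% and 1.02%. Irf1 had 318.1 to 509.8 CPM in number-prefixed and 82.5 to 95.2 CPM in letter-coded libraries (2.11 ± 0.17, edgeR adjusted p = 1.083e-06), the reverse of the undamaged order. Cxcl10 (1.70), Stat3 (0.69), the feedback inhibitor Socs3 (1.30), the phosphatase Ptpn2 (1.12) and the adaptor Myd88 (1.47) were higher, and the kinase Tyk2 (-0.86), Slfn8 and Adar were lower. Of 10 endothelial markers 2 were lower and 0 higher, with sums of 161.5 to 216.2 CPM in number-prefixed and 191.8 to 268.7 CPM in letter-coded libraries. Fibroblast markers summed to 92700 to 99620 CPM in number-prefixed and 81480 to 88570 CPM in letter-coded libraries, without overlap. In undamaged hearts these sums had leaned the other way, at 69330 to 76370 CPM against 72480 to 90320 CPM. The part of these markers was not tested. Over time, 29 of 126 pathway genes were lower and 4 higher at day 7 in all libraries, beside 11.2% and 11.5% of all genes. In number-prefixed libraries alone 9 were lower and 12 higher of 124, beside 8.81% and 10.7%, where Cxcl10 (2.93) and Stat3 (0.90) were among the higher ones.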

How the data were processed

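Poly(A) RNA of 26 sorted cell samples was sequenced as paired ends with a stranded kit, per the labels' protocols. The values deposited by the authors are whole-number counts of reads per gene and library. The submitters' processing notes name the tools STAR, TopHat, Bowtie2, Cufflinks and bcl2fastq, and the build mm10, without versions. The counting program, its strand setting and its annotation are not given in the sources used here. Each table had 24421 genes and 2 entries that name no gene, which were left out of library sizes and tests. Positions and exon lengths came from GENCODE M21 (GRCm38), matched by symbol for 36 of 36 members.

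Counts were normalized with TMM factors, and edgeR 4.0.16 (limma 3.58.1, R 4.3.3) was fitted by quasi-likelihood to genes that passed filterByExpr, with a Benjamini-Hochberg threshold of 0.05 over all genes of a fit. A 20-library fit held the groups with a gate, a 26-library fit the time points, and a 16-library fit the kind of title code within undamaged hearts and day 28, with the gate within time. Log2 CPM used a prior count of 2. The procedure was tested on simulated data. DESeq2 1.42.0, RLE factors, no filter, a block for the title code, library subsets, summed codes and leaving out each library were the alternatives.

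Replicates of 1 group were not duplicates of each other. Libraries with the same title code in both gates deviated together from their group means, with correlations of 0.187 to 0.412 over 13812 genes in 7 pairs, so the codes were taken to pair them; the pairing comes from the titles. With 2 libraries per gate at day 14 both pairs share 1 value by construction, and libraries with different letter codes also deviated together (0.196 to 0.393), so the check does not single out the letter code F3. Different number-prefixed codes of a time gave -0.412 to 0.115. Gates of 4 day 7 libraries are not in the labels and were not used. Rnf213 was not analysed here. The members and gene lists were chosen with earlier results of these data known. Values per library are given for up to 4 members per direction with the smallest p in a comparison that called any, and for 2 where it called none, with further members chosen after their values were seen. Without molecular identifiers PCR copies are counted, so floors cover counting error only.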

Additional observations from a re-analysis of the deposited data

Results flagged for a closer look

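The difference between number-prefixed and letter-coded libraries changed from undamaged hearts to day 28 for 8 members, by the test of the change itself (edgeR, adjusted p under 0.05, a comparison added after the data were seen). The changes in log2 were 2.01 for Irgm1, 1.86 for Ifitm3, 1.74 for Tap1, 1.64 for Irf7, 1.53 for Isg15, 1.25 for Psmb8, 1.24 for Gbp2 and 0.81 for Ifih1. Their adjusted p ran from 0.000162 to 0.02506. Of all genes in the fit, the change was positive and called for 8.55% and negative for 5.57% (14.1% in either direction).

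In 6 of 84 groups tested, 1 library stood apart from the others of its time by Dixon's test at the 95% level, which chance gives in about 1 of 20 groups. The Sca-1 negative day 14 library D1 was the lowest of 4 for Ifit3 (log2 CPM 4.25, next 5.16), Ifitm3 (8.31, next 8.64) and Xaf1 (3.20, next 3.89). The positive day 14 library D9 was the highest of 4 for Ddx58 (6.09, next 5.86). The positive day 28 library E2, with 55.8% of its reads outside genes, was the lowest of 7 for Bst2 (4.39, next 5.25). The positive undamaged library E1 was the highest of 9 for Oas3 (-0.40, next -1.87). The next value is near the floor of 3 counts, and that of E1 (0.648 CPM) lies above the floor.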

How the results depend on the processing

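Counts of members called kept within 1.5 times of the value given, in the same direction, under RLE factors in each comparison; the cause of the differences below was not tested. With DESeq2, 1 member was called between gates in undamaged hearts, 1 at day 28, 1 in the negative gate at day 14, 2 at day 14 over all libraries (1 higher, 1 lower), 3 at day 28 and 2 from day 7 to day 28. Without a filter on low counts 0 were called at day 28 and 0 from day 7 to day 28. With the gate modelled, which leaves out 4 day 7 libraries, 2 were called at day 14 and 0 at day 28. In number-prefixed libraries alone 7 were called at day 7 (6 higher, 1 lower), 4 at day 14 (4 higher), 4 at day 28 (3 higher, 1 lower) and 7 from day 7 to day 28 (3 higher, 4 lower), beside 19.5%, 8.5%, 11.6% and 13.8% of all genes. With the number-prefixed undamaged libraries as the reference and all others kept, chosen after seeing the data, 6 were called at day 7 (5 higher, 1 lower), 3 at day 14 (3 higher) and 0 at day 28. With libraries of 1 code summed, also chosen after seeing the data, 6 were called between the kinds of code in undamaged hearts (6 lower), 1 at day 28 (1 higher) and 4 for the change of that difference (4 higher). Letter-coded libraries alone gave 10 at day 28, or 7 without E2 (chosen after seeing the data), and the kind of code and the gate as terms gave 0. Without the libraries with Xist above 20 CPM, chosen after seeing the data, 1 was called at day 7 (higher), 0 at day 14, 0 at day 28 and 0 from day 7 to day 28. Without the 3 undamaged libraries with the fewest detected genes, also chosen after seeing the data, the counts were 5 at day 14, 8 at day 28, 5 from day 7 to day 28 and 1 in the negative gate at day 14. Directions are not given for these last fits. Shares of all genes are not given for them, for the fits without high Xist or for those that leave out 1 library. Such counts show only that the calls depend on those libraries.

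With the title code as a replicate block, 1 member (Samd9l) was called between gates in undamaged hearts. The block changed no other call of a gate difference. With the kind of code within time as a term, added after seeing the data, 1 (Ifi44) was called there.

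Leaving out each library in turn gave 0 to 1 members for the gates in undamaged hearts, 0 to 1 for day 14 in the negative gate, 5 to 12 at day 7, 0 to 3 at day 14, 0 to 2 at day 28, 0 to 2 from day 7 to day 28, 11 to 20 between the kinds of code in undamaged hearts, 0 to 9 at day 28 and 7 to 11 for the change of that difference. The direction turned at day 14 without E1 (3 called, 2 higher), from day 7 to day 28 without E3 or without 1A (1 higher each), and between the kinds of code at day 28 without E4 (1 higher). Depth limits Oas3, Ifi44 and Mx1, whose levels are near the floor in several libraries.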
